A study of Mus musculus with 10 samples.

Results

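Collagen-producing stromal cells of the mouse pituitary were picked from 10 single-cell RNA libraries by the genes whose molecules their barcodes held. A barcode stands for 1 captured cell, and a unique molecular identifier (UMI) for 1 captured RNA molecule. A barcode entered when it held UMIs of at least 2 distinct genes among 8 gate genes (Col1a1, Col1a2, Col3a1, Dcn, Lum, Ogn, Pdgfrb and Itih5) and no UMI of Pecam1, Plvap, Emcn, Cldn5, C1qa, C1qb or Sox2. The gate took 396 of 22325 kept barcodes, or 1.77%. Another 40 barcodes held at least 2 gate genes together with a gene of the second set and stayed outside. The levels of these 15 genes chose the cells, so they are given as a description without a test.

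Stromal cells make the connective tissue of an organ. Fibroblasts secrete fibrillar collagens and the small leucine-rich proteoglycans (decorin, lumican, osteoglycin) that dress collagen fibrils, whereas pericytes lie on the capillary wall, share its basement membrane and depend on the platelet-derived growth factor receptor beta, Pdgfrb. In the anterior pituitary the endocrine cells release hormone into a dense bed of fenestrated capillaries, and the narrow space around these vessels holds collagen and cells of the mesenchymal lineages. Folliculostellate cells are a different supporting cell of the gland, of epithelial kind and classically marked by S100b.

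The labels give the strain CD1 for every library. The pituitaries were taken apart in a buffer without enzymes and strained before capture, so the cells seen are those that came loose under these conditions. WT females and WT males of 8 weeks, undetermined in physiological condition by the labels and sexually naive by the study's text, each gave 1 library on the 10X Genomics platform and 2 on Drop-seq, the latter from 2 mice each by the methods. A Drop-seq library of 8-week females carried the mt/hGRF transgene, in which a metallothionein promoter drives human growth hormone-releasing factor, and it pooled mice. The other Drop-seq libraries came from WT females of 13 weeks, with 1 library from a virgin mouse, 1 from 1 lactating mouse and 1 from 2 lactating mice. With 1 transgenic and 1 virgin library, library and group cannot be told apart there.

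The libraries held 798791 to 4960260 UMIs in kept barcodes, and the median kept barcode held 533 to 1236 UMIs. Stromal cells numbered 24 to 73 per library, with a median depth of 693 to 1157 UMIs against 532 to 1242 in the other kept cells. No more than 5 barcodes were shared between libraries of 1 platform. Replicate libraries of a group differed by far more than sampling noise, with a chi-square per degree of freedom of 12.2 to 60.5. The lactating libraries came from separate experiments by the study's text, and for the 8-week libraries the labels do not say how far apart they were prepared, so p-values measure the spread between these libraries, which may be partly technical.

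The gate genes had unlike backgrounds. Col1a2 (chromosome 6, 4504814 to 4541544, GRCm38), which encodes the alpha 2 chain of type I collagen, had a UMI in 320 of the 396 stromal cells, in 42.5% of them in the lowest library, 82.7% in the median library and 97.3% in the highest. It also had a UMI in 11.1% to 46.3% of the other kept cells, with a median of 22.1%. In macrophages, which should lack the gene and had a median depth of 633 to 1730 UMIs, the share was 1.59% to 26.2% with a median of 7.91%. Col1a2 was therefore found well outside the gate, and its share in other cells was highest in the lactating libraries, at 32.9% and 46.3%. Barcodes too shallow to keep also held it, at 6.53 UMIs per 10000 in mt/hGRF against 5.09 in the other kept cells. In the virgin library it was at 6.03 against 4.81. It was lower than in the other kept cells in the remaining libraries measured, as at 1.77 against 3.13 in WT male replicate 3. The part of free RNA in these values was not tested.

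The partner chain Col1a1 (chromosome 11, 94936224 to 94953042) behaved otherwise. It had a UMI in 128 stromal cells, or 10.7% to 65.4% per library with a median of 29.6%, against 0.0556% to 1.36% of the other kept cells and 0% to 3.16% of macrophages. Its level was 0.701 to 6.36 UMIs per 10000 UMIs in stromal cells, with a median of 3.50, against 0.00744 to 0.140 in the other cells. For Col1a2 the same levels were 4.24 to 20.99 (median 11.1) against 0.919 to 9.61 (median 3.33). The ranges of Col1a1 did not overlap between stromal and other cells, and those of Col1a2 did.

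**Figure D1:**
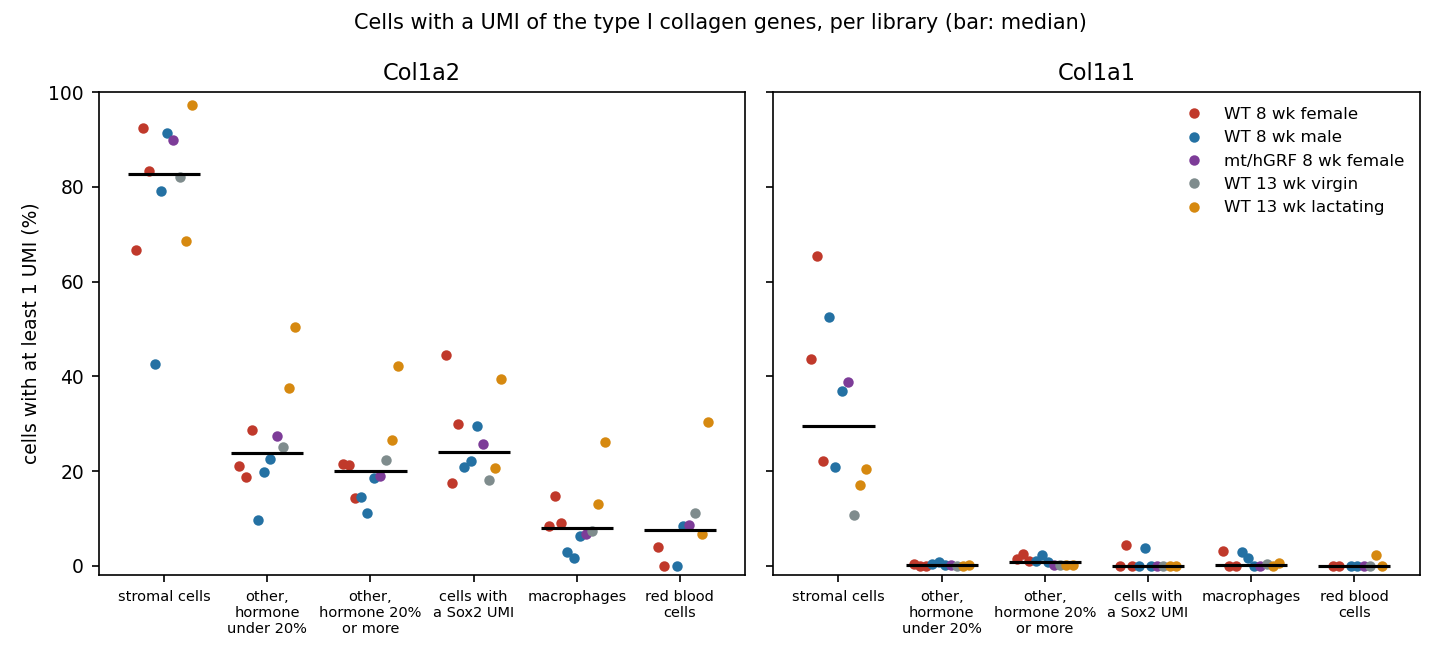
Percent of cells with at least 1 UMI (y axis) of Col1a2 (left) and Col1a1 (right) in 6 kinds of cells (x axis), with 1 dot per library coloured by group and a bar at the median; red blood cells were counted in 8 libraries. Col1a2 had medians of 20.1% to 24.0% in hormone-rich, hormone-poor and Sox2 cells outside the gate, whereas Col1a1 stayed at medians of 0% to 0.866% there.

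Decorin, Dcn (chromosome 10, 97479609 to 97518143), had UMIs in 206 stromal cells, at a level of 6.75 to 43.0 UMIs per 10000 (median 16.3) against 0.0533 to 0.197 in the other cells. Its neighbour on the chromosome, the lumican gene Lum (97565128 to 97572703), had UMIs in 44, of which 33 also held Dcn. Itih5, a hyaluronan-associated secreted protein, was found in 164 stromal cells, Col3a1, the type III collagen chain, in 139, the osteoglycin gene Ogn in 101 and the receptor gene Pdgfrb in 70. The gate asks for 2 of these genes, so their joint presence is in part set by the rule. Of the 70 cells with Pdgfrb, 42 (60.0%) held Itih5 and 33 (47.1%) held Dcn, and of the 206 cells with Dcn, 99 (48.1%) held Itih5.

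The edge of the gate was examined with genes that the gate did not use, over barcodes with no UMI of the 7 excluded genes. A fibroblast list of 18 other genes (among them Pdgfra, Mgp, Apod, Igfbp6, Gsn and Serping1) summed to a median of 0.725 UMIs per 10000 over the libraries in the 14035 cells with no gate gene, and to 1.06 in the 6255 cells with 1 gate gene, 94.7% of which held Col1a2. In the 228 cells with exactly 2 gate genes it summed to 0.949 to 31.1 per library with a median of 6.35, and in the 168 cells with at least 3 to 31.2 to 289 with a median of 101.8. At least 2 of the 18 genes were seen in 1.15% of cells with 1 gate gene, 17.1% of those with 2 and 68.5% of those with 3 or more. The members just inside the gate were thus a mixed set by this list, and those with 3 or more gate genes were much richer in it. Of the 228 cells with exactly 2 gate genes, 184 (80.7%) held Col1a2. A gate without Col1a2 kept 212 cells in place of 396, and 20 in place of 73 in lactating replicate 2.

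**Figure D2:**
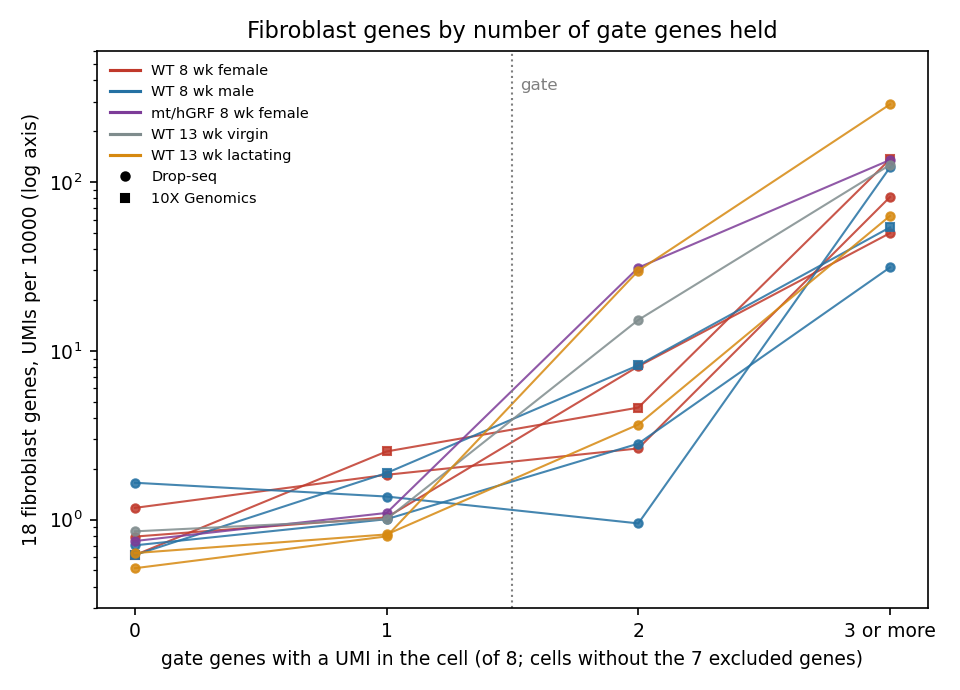
Summed level of 18 fibroblast genes outside the gate, in UMIs per 10000 UMIs on a log axis, by the number of gate genes held (0, 1, 2, and 3 or more), with 1 line per library coloured by group. The median over libraries went from 0.725 and 1.06 outside the gate to 6.35 in cells with 2 gate genes and 101.8 in cells with 3 or more.

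Hormone RNA marked many of the cells just inside the gate. In 123 of the 396 stromal cells the 7 pituitary hormone genes Gh, Prl, Pomc, Cga, Lhb, Fshb and Tshb held at least 20% of UMIs, with a range of 14.3% to 65.4% of stromal cells per library against 13.7% to 43.4% of the other kept cells. These hormone-rich stromal cells were deep, with a median of 2079 UMIs against 773 in the other 273. Their pooled level of the 18 fibroblast genes was 4.72 UMIs per 10000 against 81.9, and 25 of 123 held at least 2 of these genes against 129 of 273. The share of hormone-rich cells was 42.5% with exactly 2 gate genes and 15.5% with 3 or more. Of the 396 stromal cells, 77 lay among the 5% of barcodes with most UMIs in their library. Captures of 2 cells under 1 barcode were not called, and their part in these cells was not tested. Results against other cells are therefore also given below without the hormone-rich cells.

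Markers of other cell types were read in the stromal cells in the same way. Macrophage genes summed to 0 to 1.02 UMIs per 10000 per library (26 UMIs in all) against 4.89 to 21.9 in the other cells, and red blood cell genes to 2.93 to 24.3 against 77.8 to 657. The 12 pericyte genes summed to 1.77 to 3.27 (162 UMIs in all, Atp13a5 at 0), against 0.266 to 0.599, and the 8 smooth muscle genes to 0.210 to 1.34 (40 UMIs in all). The 11 endothelial genes reached 0.349 to 2.24 (79 UMIs in all, with Tek and Robo4 at 0) against 0.169 to 0.539. The 8 folliculostellate genes reached 1.16 to 3.92, with Gfap at 0, against 0.504 to 2.41 in the other cells. They reached 0.791 to 13.7 in the Sox2 cells, which held a Sox2 UMI and no other gate gene. The 7 meningeal genes ranged from 0.786 to 66.4. The 7 stem cell genes were at 3.67 to 10.1 against 4.09 to 8.39 in the other cells, and the 14 hormone cell genes at 1443 to 3806 (median 2789) against 1355 to 2741 (median 2157). So fibroblast genes stood above the other cells, and markers of vessel-wall cells were present at low level. The folliculostellate list overlapped in range with the Sox2 cells. Hormone RNA summed over cells was higher than in the other cells of the same library in 9 of 10 libraries, mt/hGRF being the exception. Per cell, the median hormone share (7 genes) was lower in stromal cells, except in WT female replicates 2 and 3 and male replicate 2. It was 7.44% against 14.7% in the other cells of WT male replicate 1, and 35.0% against 15.2% in WT female replicate 2. The name collagen-producing stromal cells fits cells with 3 or more gate genes better than those with 2, and no finer cell type name is given.

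**Figure D3:**
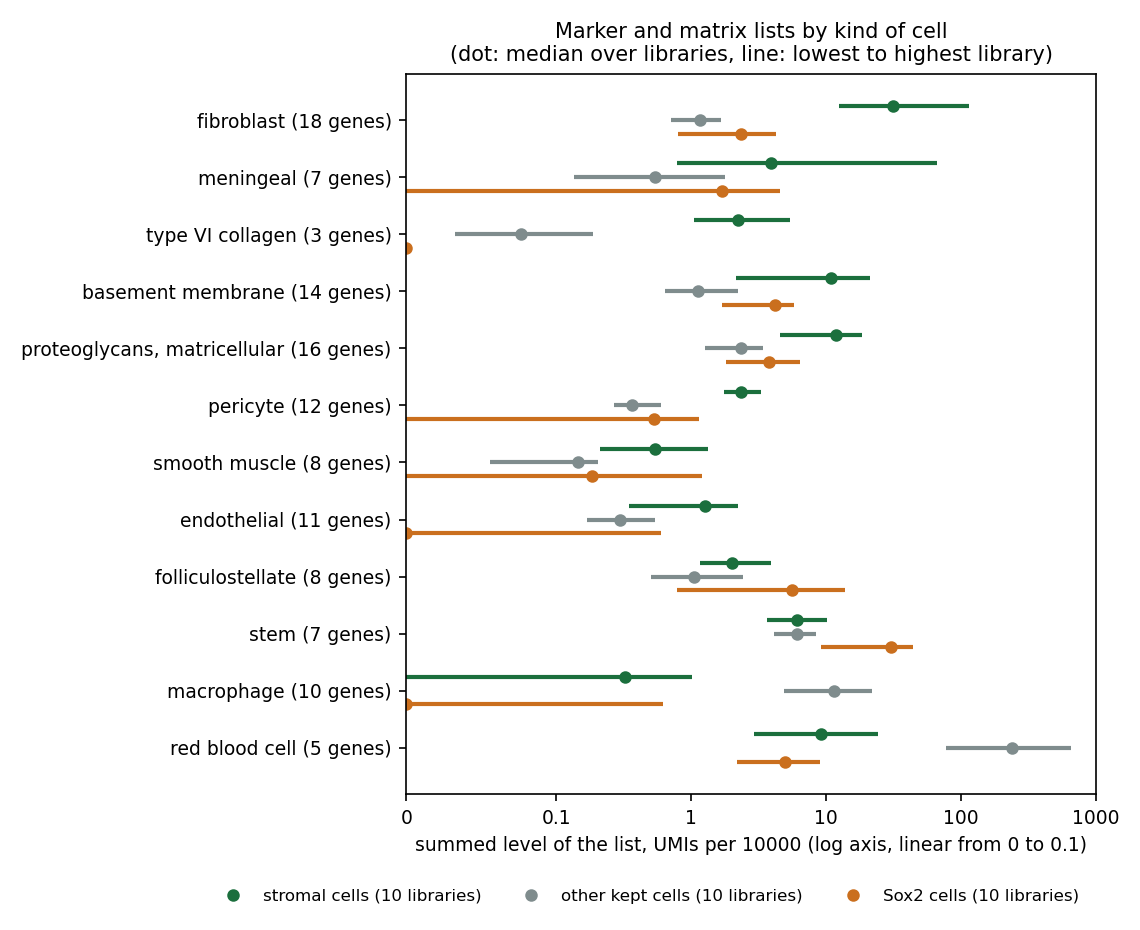
Summed level of 12 gene lists (y axis) in UMIs per 10000 UMIs (x axis, log, linear from 0 to 0.1) by kind of cell. The kinds were stromal cells, other kept cells, and cells with a Sox2 UMI and no other gate gene. Each has a dot at the median and a line from the lowest to the highest of 10 libraries. The ranges of the fibroblast, type VI collagen, pericyte, smooth muscle and proteoglycan lists in stromal cells lay above those of the other kept cells. Those of the macrophage and red blood cell lists lay beneath.

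To ask which genes outside the gate set stromal cells apart, their UMIs were summed per library and compared with the sum of all other kept cells of the same library in edgeR's quasi-likelihood test with library as a block. Of 10361 genes tested, 17.2% passed an adjusted p of 0.05 (Benjamini-Hochberg), 454 of them higher in stromal cells (4.38%) and 1327 lower (12.8%). The median log2 fold change over all genes was -0.32, and each list is read beside it. With DESeq2 the median was -0.05, with 583 genes higher and 234 lower, so the count of lower genes depended on the tool far more than the count of higher ones. Without the hormone-rich stromal cells 508 genes were higher.

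Of the fibroblast list, 17 of 18 genes could be tested and all 17 were higher, with a median log2 fold change of 4.27. Genes as rare in the other cells as Pdgfra entered the test through the stromal cells, where they were high. The count and the folds of such genes are therefore given as a description. The same holds for the type VI collagen, basement membrane, pericyte, smooth muscle, endothelial and meningeal genes below, and for other list genes as rare. Apod, the lipid carrier apolipoprotein D, had 4.19 to 85.6 UMIs per 10000 in the stromal cells of the 10 libraries (median 12.8) against 0.102 to 0.574 in the other cells. Matrix Gla protein, Mgp, an inhibitor of calcification, had 1.16 to 20.3 (median 6.39) against 0.0429 to 0.462. Pdgfra, the receptor for platelet-derived growth factor that marks fibroblasts, had 0.0655 to 1.89 (median 0.875) against 0 to 0.0266. For each of the 3 genes the lowest stromal library stood above the highest sum of other cells. The log2 fold changes were 5.86 ± 0.18 (SE) for Apod, 4.73 ± 0.19 for Mgp and 5.83 ± 0.50 for Pdgfra, and in edgeR's quasi-likelihood test the adjusted p for Mgp was 1.41e-133. Igfbp6, which binds insulin-like growth factor II, had the highest fold of the genes that moved the same way in every library, at 6.32 ± 0.39. The richest stromal cell held 123 of the 1326 UMIs of Apod.

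The same ranking also named Slc47a1, a transporter of organic cations (5.91 ± 0.49), Col6a2 (5.50 ± 0.52), the methyltransferase gene Inmt (5.47 ± 0.42), the basement membrane linker Nid1 (5.33 ± 0.33), the oxidase gene Cyp1b1 (5.16 ± 0.60), the transporter gene Abca8a (5.11 ± 0.45) and Islr (4.99 ± 0.39). In all, 86 genes were higher and 219 lower in every one of the 10 libraries. The 5 lower genes of the ranking, Fcrls, Hpgds, Gpr34, Cd14 and Ccl12, are known from macrophages and microglia and had no UMI in stromal cells, from which barcodes with C1qa or C1qb were barred.

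The collagen repertoire went beyond the gate genes. All 3 chains of type VI collagen, the beaded filament around cells, were higher, with Col6a1 at 0.786 to 3.25 UMIs per 10000 (median 1.32) against 0.0205 to 0.0805 in the other cells and a log2 fold change of 4.94 ± 0.34 (SE). Type VI collagen RNA was at 0 in the Sox2 cells of every library, which were picked to hold no UMI of the collagen genes of the gate. Of 7 other fibrillar and fibril-associated collagens 5 were higher (Col5a1, Col5a2, Col5a3, Col12a1 and Col14a1, median of the list 3.003), and Col11a1 was lower by edgeR's quasi-likelihood test, at -0.98 ± 0.29 (adjusted p = 0.0088, Benjamini-Hochberg). Among 14 basement membrane genes 12 were higher and none lower (median 2.57), with the laminin chain Lama2 at 5.47 ± 0.46, Nid1 at 5.33 ± 0.33 and the type IV collagen chains Col4a1 at 3.42 ± 0.25 and Col4a2 at 3.22 ± 0.26. The basement membrane list summed to 2.16 to 21.4 UMIs per 10000 in stromal cells against 0.644 to 2.22 in the other cells.

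Genes that build, dress and turn over the matrix followed in part. Of 15 collagen processing genes 6 were higher and none lower, and the median of the list was only 0.30. They were the procollagen C-proteinase enhancer Pcolce (3.78 ± 0.25), the proteases Bmp1 and Adamts2, the cross-linking oxidases Lox and Loxl2, and the collagen chaperone Serpinh1 (1.48 ± 0.21). Of 14 proteoglycan and matricellular genes tested 11 were higher (median 2.46), with biglycan, Bgn, at 4.03 ± 0.36 and Sparc, a collagen-binding secreted protein, at 2.05 ± 0.16. Of 8 turnover genes tested 7 were higher (median 2.77), with the metalloproteinase inhibitor Timp3 at 2.92 ± 0.21. No gene of the 3 lists was lower.

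Of 20 genes of growth factor signalling tested 11 were higher and 1 lower, and 8 did not pass (median 1.66). Igfbp7, a binding protein of insulin-like growth factors found around vessels, had 1.86 to 15.7 UMIs per 10000 (median 4.13) against 0.0666 to 0.385 in the other cells, with a log2 fold change of 4.47 ± 0.19. The fetal growth factor gene Igf2 had 0 to 12.2 (median 1.21), with 130 UMIs in 27 cells of 7 libraries and 42 of them in 1 cell, and it was at 0 in both 10X Genomics libraries and in the virgin one. Bmp4 and Bmp5, Bmp7, Ltbp1, Ltbp4, Rspo3, Igf1, Igfbp2 and Igfbp5 were also higher, and the receptor gene Tgfbr1 was lower (-1.28 ± 0.31). Among the retinoid genes Rbp4, which carries retinol in blood, was higher at 1.79 ± 0.24. Among 8 hormone receptor genes Ghr, the growth hormone receptor, was higher at 2.15 ± 0.59 and Prlr, the prolactin receptor, lower at -0.63 ± 0.22. Of the genes named here and above, Prlr, Igf1, Bmp5 and Col11a1 did not pass in DESeq2, Ghr, Igf1, Prlr and Bmp1 did not pass on the Drop-seq libraries alone, and Bmp1, Bmp7 and Col11a1 did not pass without the hormone-rich stromal cells.

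Markers of neighbouring cell types were also tested. Of 9 pericyte genes tested 5 were higher and none lower (median 1.97), namely Vtn (5.09 ± 0.43), Anpep, Cspg4, Kcnj8 and Rgs5 (1.85 ± 0.46). Their counts were small: Rgs5, the gene most used to mark pericytes, had 26 UMIs in 14 stromal cells with 7 in 1 cell, and Vtn, the vitronectin gene, had 67 UMIs in 38 cells. The smooth muscle genes Tagln and Myl9 were higher as well, whereas Acta2 had 1 UMI. Among endothelial genes outside the gate Ramp2, Cdh5 and Eng were higher, 3 of 4 tested. On the Drop-seq libraries alone Kcnj8 did not pass. Of 7 folliculostellate genes tested 3 were higher (S100b at 3.06 ± 0.60 from 19 UMIs, Fxyd1 and Anxa1, median 0.97), and none passed of 6 stem cell genes or of 3 pituicyte genes. Of 14 hormone cell genes Lhb and Cga were higher and Pax7, Pou1f1 and Ghrhr lower; without the hormone-rich stromal cells Cga went from 0.80 ± 0.14 to -2.29 and Lhb from 0.93 ± 0.18 to -3.29, an alternative added after seeing the data that removes stromal cells by the UMIs of these same genes and so fixes the fall. Cga was also at -0.18 with at least 3 gate genes, and without the 5% of barcodes with most UMIs Cga was at -0.63 and Lhb at -0.59. Of 8 immediate early genes 5 were lower (median -1.04), with Fos at -2.32 ± 0.27, but Fosb, Jun, Junb and Dusp1 did not pass in DESeq2.

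The cells with a Sox2 UMI, a transcription factor of pituitary stem cells and folliculostellate cells, are the gland's other non-endocrine support, and 264 of them held no other gate gene. They were compared with stromal cells in 9 libraries, leaving out WT female replicate 1, which had 9 of them. Of 1279 genes tested, 10.4% passed in edgeR's quasi-likelihood test, 62 higher in stromal cells (4.85%) and 71 lower (5.55%), with a median log2 fold change of 0.03. Igfbp7 had 2 UMIs in the Sox2 cells of all libraries against 444 in stromal cells, Sparc a median of 0.395 UMIs per 10000 against 5.84 (3.62 ± 0.39), and Apod one of 0.0617 against 12.8. Inmt and Nid1 had no UMI in the Sox2 cells, so no fold is given for them. Mgp, Pcolce, Gsn and Serping1, the C1 inhibitor gene, were also among the 10 highest.

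Genes of the Sox2 cells were the lower ones. Mia, a secreted protein on the stem cell list, had a median of 17.7 UMIs per 10000 in Sox2 cells and was lower in stromal cells at -2.83 ± 0.35 on the log2 scale. The folate receptor gene Folr1 (-3.14 ± 0.42), Tril, Nrcam and the endothelin receptor gene Ednrb followed. Sox9, the factor that accompanies Sox2, was at -2.32 ± 0.67 and Cyp2f2 at -2.28 ± 0.53. Stromal cells could hold no Sox2 UMI, while every Sox2 cell had to hold it. The fall of Mia, Sox9 and Cyp2f2, all on the stem cell list, is thus in part set by the gates and given as a description. The only folliculostellate gene that could be tested here was Aldoc, which was lower at -2.88 ± 0.40. Apod, Mgp, Serping1, Gsn and Igfbp4 of the fibroblast list were higher, as were Nid1, Col4a1 and Col4a2. Each of the fibroblast genes had 2 to 10 UMIs in the Sox2 cells and entered the test through the stromal cells, as did Nid1, so their count is given as a description. Col4a1, with 18 UMIs there, was at 1.89 ± 0.42. Hormone cell genes were higher too, 6 of 11 tested, namely Lhb (1.69 ± 0.34), Gh (1.42 ± 0.23), Prl (1.39 ± 0.26), Pou1f1, Cga and Chgb, as was the globin gene Hbb-bs (1.33 ± 0.30). Without the hormone-rich stromal cells, which were removed by their Gh, Prl and Cga UMIs among others, Gh was at -0.74, Prl at -1.11 and Cga at -1.80, all past the threshold on the lower side. Chgb at -0.44 and Hbb-bs at -0.0208 no longer passed, and Pou1f1 still did. S100b could not be tested, with 19 UMIs in stromal and 1 in Sox2 cells. A comparison with endothelial cells could not be fitted, since only 12 cells entered the endothelial gate.

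Whether fibroblasts and pericytes part within the gate was asked first by the gate genes alone. Of the 396 cells, 149 held Dcn, Lum or Ogn without Pdgfrb or Itih5, 77 held Pdgfrb or Itih5 without the former, 115 held both kinds and 55 held collagen genes only. Those with both kinds ranged from 2 of 26 cells in WT female replicate 2 to 20 of 40 in WT male replicate 1. The cells with both kinds were the richest, with a pooled fibroblast list of 173 UMIs per 10000 and a pericyte list of 7.14, and 84 of 115 held at least 2 fibroblast genes. In the cells with Pdgfrb or Itih5 only, 19 of 77 held at least 2 fibroblast genes and the pericyte list stood at 2.82. Cells with at least 2 of the 12 pericyte genes numbered 15, and 7 of these also held at least 2 fibroblast genes. These counts follow the number of gate genes held, since 16 of the 115 cells with both kinds held exactly 2 gate genes, against 108 of the 149 and 50 of the 77, so they do not answer the question.

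The sums of these 2 sides were compared in the 9 libraries with at least 5 cells on each side. This left out WT male replicate 2, with 12 of the 149 and 3 of the 77 cells. Of 375 genes tested 0.8% passed in edgeR's quasi-likelihood test (Benjamini-Hochberg), all 3 higher on the side of Dcn, Lum and Ogn: Apod (1.77 ± 0.46, adjusted p = 0.0264), Cga (1.69 ± 0.36, adjusted p = 0.0011) and the secretory cell gene Resp18 (1.37 ± 0.38, adjusted p = 0.0407). None of the 3 moved the same way in every library, and they are named because so few passed. Hormone-rich cells made up 68 of the 149 and 18 of the 77. No gene passed in DESeq2, where 43 genes had an unadjusted p under 0.05 against 57 in edgeR. None passed without the hormone-rich cells or without Col1a2 in the gate either, but these fits shrank to 52 genes in 5 libraries and 83 genes in 3 libraries, and the log2 fold change of Apod was 3.76 and 2.98 there. No pericyte gene had enough UMIs to be tested.

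A split by the larger sum of UMIs, which also places cells that hold both kinds, gave 212 cells with more Dcn, Lum and Ogn and 105 with more Pdgfrb and Itih5, with 79 equal. Apod had 4.51 to 116.6 UMIs per 10000 in the former over the 10 libraries (median 23.4) and 1.12 to 15.8 (median 3.13) in the latter. Mgp had 0.711 to 21.5 (median 8.14) and 0 to 6.59 (median 2.20). Igf2 had 128 UMIs and 1 UMI. These 3 genes leaned to the side of Dcn, Lum and Ogn, though the ranges over libraries overlapped. In edgeR's quasi-likelihood test 22 of 641 genes passed (3.43%), all of them higher on that side. That side was the deeper, with a median of 37358 UMIs per library against 11451.5, and DESeq2 was not run on this split. Genes that leaned to the shallower side, such as Rgs5, had too few UMIs to be tested. The shared direction is therefore given as a description. Apod was at 2.86 ± 0.36, Ptgds, the prostaglandin D synthase gene, at 2.96 ± 0.57, Mgp at 1.73 ± 0.37 and Sparc at 1.40 ± 0.35. Gsn was at 1.44 ± 0.40 and Efemp1, an elastic fibre gene, at 1.65. Igf2 also passed, with a fold that rests on 1 UMI on the other side. Of the 455 Ptgds UMIs in all stromal cells, 205 were in 1 cell and 319 in the mt/hGRF library. The hormone subunit gene Cga passed on the same side at 1.17 ± 0.33, where 71 of the 212 cells were hormone-rich against 23 of the 105. Igfbp6 had 95 UMIs and 2, and the microfibril gene Mfap5 had 70 and 1, and neither had enough counts to be tested over all stromal cells. Among cells that were not hormone-rich, 22 of 196 genes tested passed (11.2%), with Apod at 3.75 ± 0.50 and Mgp at 2.39. Pdgfra did not lean this way, with a median of 0.675 UMIs per 10000 in the 212 cells (28 UMIs) and 1.48 in the 105 (23 UMIs).

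In the split by the larger sum nothing passed on the side of Pdgfrb and Itih5. In the first split, of 149 against 77 cells, nothing passed on that side with TMM scaling, and with TMMwsp scaling, added after seeing the data, 1 gene did, against 3 on the other side. Type IV collagen, which pericytes share with the vessel wall, had Col4a2 at 0 to 8.58 UMIs per 10000 (median 3.89) against 0 to 3.14 (median 1.08), with a log2 fold change of -1.03 ± 0.43 and an adjusted p of 0.18 in edgeR's quasi-likelihood test (Benjamini-Hochberg), and Col4a1 was at -0.17. Igfbp7 was at 0.06 ± 0.33 (adjusted p = 0.95). Rgs5 had 14 UMIs in the 105 cells against 3 in the 212 and 9 in those with equal sums, while Vtn had 15 against 47 and Kcnj8 5 against 3. Of the fibroblast list Apod, Mgp and Gsn thus passed on the side of Dcn, Lum and Ogn, Serping1 at 1.01 ± 0.44 did not, and no pericyte gene had enough UMIs to be tested. Among cells that were not hormone-rich Serping1 passed as well, at 1.66 ± 0.47, as did Igfbp4 at 2.61 ± 0.58. The summed depth was 4554 to 37431 UMIs per library for the 105 cells and 21612 to 73313 for the 212. The UMI counts of Rgs5, Vtn and Kcnj8 are not scaled to it.

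**Figure D4:**
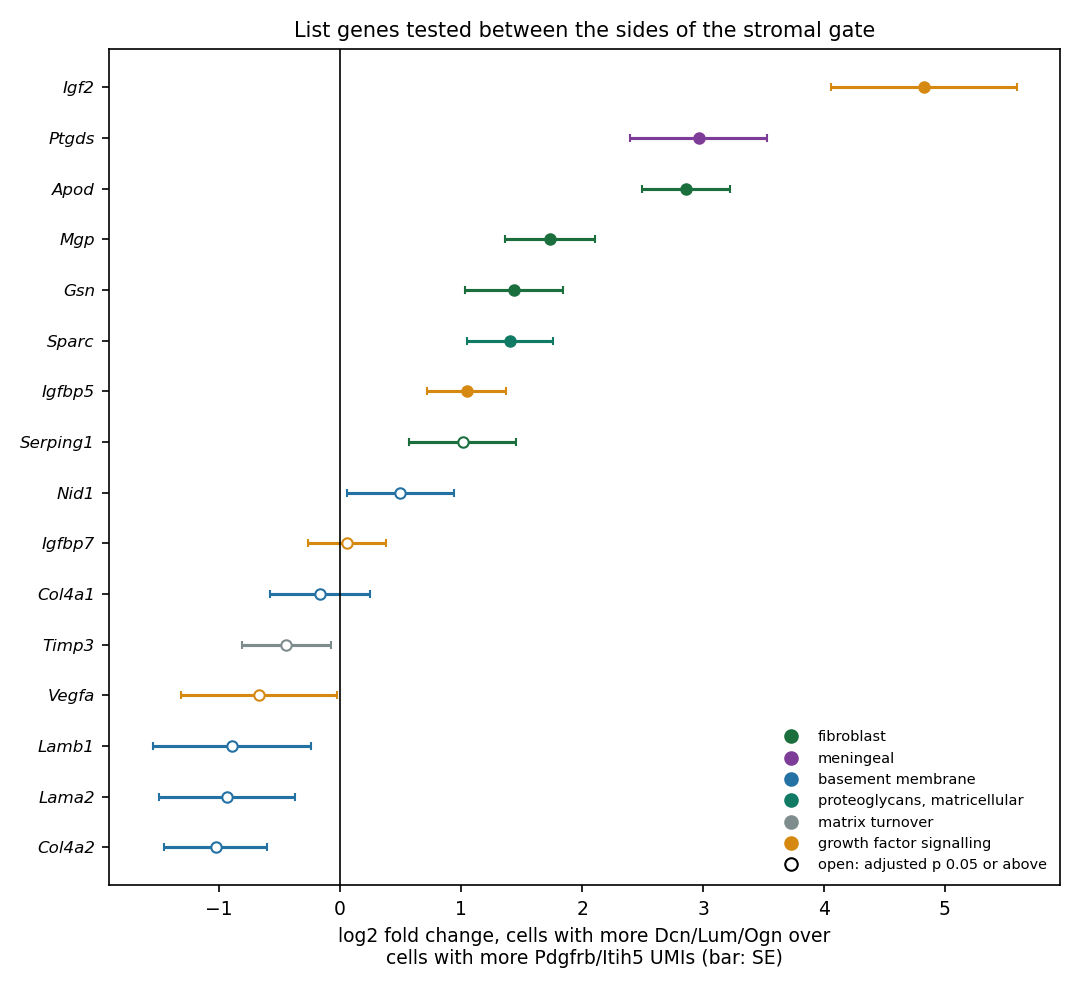
Log2 fold change ± SE of 16 genes of the lists (y axis) between stromal cells with more Dcn, Lum and Ogn UMIs and those with more Pdgfrb and Itih5 UMIs (x axis, positive where the former were higher), fitted over 10 libraries; filled points passed an adjusted p of 0.05. The 7 filled genes all lie above 0, and of the 6 genes below 0, Col4a2 at -1.03 among them, none passed. The side of Pdgfrb and Itih5 was the shallower, and no pericyte gene could be tested.

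The share of stromal cells in the kept barcodes was next compared between conditions. In WT females of 8 weeks it was 2.41% (95% exact interval 1.72% to 3.27%) on 10X Genomics and 3.22% and 2.94% on Drop-seq. In WT males it was 2.48% on 10X Genomics and 2.88% and 2.37% on Drop-seq. The sexes overlapped. The means were 2.85% ± 0.414 and 2.58% ± 0.271 (SD, n = 3 each), a difference of -0.275 points for males over females (exact two-sided permutation test, p = 0.4, where the smallest p possible is 0.1). The sign turned with at least 3 gate genes (0.124 points) and without Col1a2 in the gate (0.148 points). After each cell was thinned to 300 UMIs the shares were 1.11%, 1.12% and 1.14% in females and 1.06%, 1.08% and 1.03% in males, which did not overlap (exact p = 0.1), and at 500 UMIs the difference was -0.0481 points (exact p = 1). The shares at 300 UMIs rest on 18, 9 and 14 cells in females and 17, 9 and 20 in males, from 1 random thinning. In replicate 2 their 95% exact intervals were 0.511% to 2.11% in females and 0.496% to 2.04% in males. In a share of captured cells, fewer stromal cells and less RNA per stromal cell cannot be told apart.

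At 13 weeks the virgin library had a share of 0.772% (0.514% to 1.11%) and the lactating libraries had 1.33% (0.925% to 1.84%) and 1.39% (1.09% to 1.74%), a difference of 0.586 points with 1 virgin library and no test. The share of other kept cells with a Col1a2 UMI was also highest in the lactating libraries. Among macrophages it was 7.39% in the virgin library, 13.1% and 26.2% in the lactating ones and 14.8% in WT female replicate 2. Thinned to 300 UMIs the shares were 0.414% in the virgin library and 0.720% and 0.343% in the lactating libraries, on both sides of it. Thinned to 500 UMIs they were 0.442%, and 0.653% and 0.786%, and with at least 3 gate genes the difference was 0.216 points. The mt/hGRF library stood at 1.77% (1.31% to 2.33%), 1.31 points under the mean of 3.08% in the WT female Drop-seq libraries. Counting only stromal cells that were not hormone-rich, it stood 0.0599 points under it. Hormone-rich cells were 65.4% of stromal cells in WT female replicate 2, the highest share of any library.

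**Figure D5:**
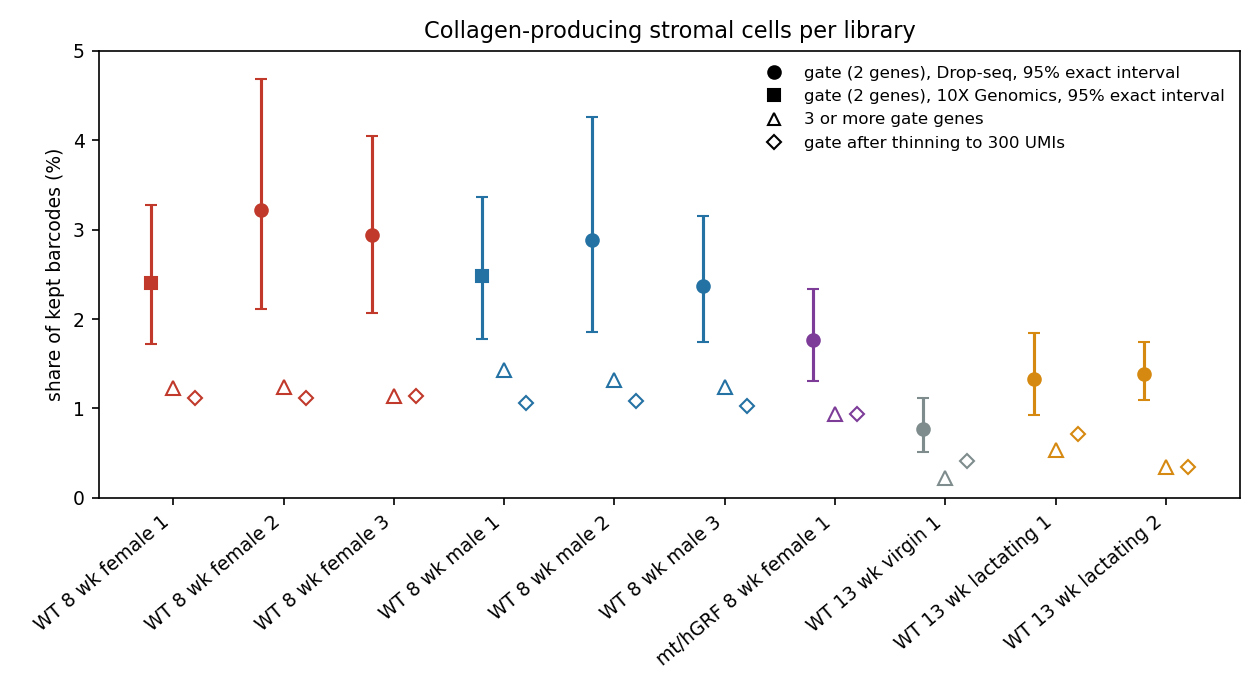
Share of kept barcodes in the stromal gate (y axis, percent) for each of 10 libraries grouped by condition (x axis), with 95% exact binomial intervals that cover counting error only; triangles show the share with at least 3 gate genes and diamonds the share after thinning to 300 UMIs. The WT libraries of 8 weeks lie between 2.37% and 3.22% and overlap between the sexes, and the virgin library of 13 weeks is the lowest at 0.772%.

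Few genes passed between the sexes within stromal cells, in libraries of 24 to 46 such cells. Of 997 genes tested 4 passed in edgeR's quasi-likelihood test with platform as a term (0.401%), 2 higher in males (0.201%) and 2 lower (0.201%), and 33 had an unadjusted p under 0.05. Xist, the RNA that silences an X chromosome, and its antisense partner Tsix were lower in males, and Eif2s3y, on the Y chromosome, was higher, as the labels require: Xist had 77.9, 20.96 and 46.6 UMIs per 10000 in the female libraries and 0 in every male library. The remaining gene was Fshb, the beta subunit of follicle-stimulating hormone, with 0.135, 0 and 0.540 UMIs per 10000 in females and 3.03, 3.81 and 3.84 in males (log2 fold change 3.88 ± 0.62, adjusted p = 0.0075 by edgeR's quasi-likelihood test). The other kept cells of the same libraries had 0.0113, 0.173 and 0.215 in females and 2.73, 2.97 and 1.61 in males. So Fshb differed in the same direction outside the gate. Without the hormone-rich stromal cells Fshb had no UMI in females and 0, 5.78 and 0.671 per 10000 in males, and Xist was the 1 gene that passed.

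Of 7 fibroblast genes outside the gate that could be tested none passed between the sexes (median -0.49 against 0.06 over all genes), with Apod at -1.25 ± 0.47. The gate genes chose the cells, and their log2 differences are given only as a description: Col1a1 was at -0.57 ± 0.40, Col1a2 at -0.57 ± 0.41, Col3a1 at 0.07 ± 0.48, Dcn at 0.12 ± 0.47 and Itih5 at 0.42 ± 0.41 for males over females.

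Female and male libraries of the same replicate number were taken as pairs, and with this replicate block 7 genes passed (0.702%), the same 4 with the addition of Prl, the prolactin gene (-2.19 ± 0.47), Spp1, the osteopontin gene (-2.36 ± 0.54), and the splicing factor gene Cwc22 (2.999 ± 0.61). Prl had 746, 898 and 439 UMIs per 10000 in the female and 211, 106 and 131 in the male stromal cells, against 476, 677 and 189 and 206, 125 and 108 in the other cells, so the same order held outside the gate. The count without the block was 11 without female replicate 2 and 2 without male replicate 3.

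The lactating and virgin libraries differed in 1 of 1165 genes tested (0.0858%), with 61 at an unadjusted p under 0.05. Cwc22 had 4.91 UMIs per 10000 in the virgin stromal cells and 0.408 and 0 in the lactating ones (adjusted p = 0.0062 by edgeR's quasi-likelihood test, with a fitted log2 change of -5.27 ± 0.91 that rests on 2 UMIs in the lactating cells), and the other kept cells of these libraries had 10.5, 0.250 and 0.119. The difference therefore stood in the whole library. DESeq2 called no gene, with 12 at an unadjusted p under 0.05, and without lactating replicate 2 edgeR called none. Apod had 14.5 in the virgin library and 85.6 and 11.2 in the lactating ones, and Dcn had 12.2 against 43.0 and 16.4. For Apod the virgin library lay between the lactating ones, and no fibroblast gene passed, of 7 tested (median 0.52 against 0.06 over all genes).

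Between the mt/hGRF library and the WT female Drop-seq libraries of 8 weeks, 3 of 1165 genes passed (0.258%), 1 higher (0.0858%) and 2 lower (0.172%), all at an adjusted p of 0.0489 by edgeR's quasi-likelihood test (Benjamini-Hochberg). Col27a1, a fibrillar collagen of cartilage, had 8.01 UMIs per 10000 in the mt/hGRF stromal cells and 0.629 and 1.08 in WT (2.97 ± 0.63). It was just as high in the other cells of that library, at 7.97 against 0.892 and 1.83, so it did not mark the stromal cells. The gonadotropin subunit genes Lhb (0 against 4.61 and 2.16) and Cga (3.43 against 51.4 and 16.4) were lower. The other cells had Lhb at 0.326 against 2.32 and 0.607, the same order, and Cga at 5.50 against 23.9 and 4.73, on both sides of it. DESeq2 called 2 genes, of which Cga alone is among these 3, and without WT female replicate 2, in which 17 of the 26 stromal cells were hormone-rich, none of the 3 genes passed, nor without the hormone-rich cells. Igf2 had 12.2 against 1.26 in each WT library (log2 fold change 3.04) and did not pass. Of its 64 UMIs in 5 mt/hGRF stromal cells, 42 were in 1 cell. Ptgds, of the meningeal list, had 319 UMIs in this library, 205 of them in 1 cell, against 6 and 54 in WT. Of 7 fibroblast genes tested none passed (median 0.78 against -0.10 over all genes).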

How the data were processed

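The authors deposited whole-number UMI counts per gene and cell barcode, aligned to mm10 (STAR 2.5.2a for Drop-seq, Cell Ranger for 10X Genomics, version not given in the sources used here). Cells were kept from 300 UMIs and 100 to 4000 genes (Drop-seq) or 201 to 2999 genes (10X Genomics), with mitochondrial RNA under 10.0% and ribosomal pseudogenes under 1.0%. The members, the gate and the gene lists were chosen with earlier results of these data known.

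Fits with 10X Genomics libraries took the 24767 genes of both platforms, and fits of Drop-seq alone the 41122 genes of any Drop-seq library. Counts were summed per library and class, in libraries with at least 10 cells (5 per side). They were tested in edgeR 4.0.16 (TMM, filterByExpr, quasi-likelihood, two-sided, Benjamini-Hochberg, adjusted p of 0.05) under R 4.3.3, with library as a block between classes and platform as a term between sexes; lactation and transgene were contrasts in 1 fit of the 8 Drop-seq libraries, so a single library took the spread of the others. DESeq2 1.42.0 was an alternative. The 15 gate genes were left out of tests between classes. The fits were also run on simulated counts with a fixed spread and no platform effect. That run cannot show how they behave at the spread of these libraries. Shares carry 95% exact binomial (Clopper-Pearson) intervals, which cover counting error only, and were compared by exact permutation. No doublet caller was used; alternatives left out the 5% of barcodes with most UMIs, hormone-rich cells or Col1a2. Named genes were list members, and per comparison the 10 highest and 5 lowest folds (5 and 5 between conditions) past the threshold with 1 direction in every library; some genes that the rule names are not reported here. Same-numbered female and male libraries share a platform and, on Drop-seq, a tag in their titles whose meaning is not stated. Their deviations from the group means correlated at 0.82, 0.32 and 0.65, each over 0.1, so they were taken as pairs, although the Drop-seq libraries of unlike numbers correlated at 0.35 and 0.45. Positions are from GENCODE on GRCm38.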

Additional observations from a re-analysis of the deposited data

How the results depend on the processing

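Alternatives by hormone share, by a gate without Col1a2 and by TMMwsp scaling were added after seeing the data. The sign of the sex difference in share turned with 3 gate genes (0.124 points) and without Col1a2 (0.148), and leaving out 1 library gave -0.500 to -0.0919; with the replicate block it stayed at -0.275 (exact p = 0.5, smallest possible 0.25). The lactating difference in share was 0.118 and 0.277 points after thinning to 300 and 500 UMIs, 0.216 with 3 gate genes, 0.276 without Col1a2 and 0.471 without hormone-rich cells, and the mt/hGRF difference was -0.189, -0.495, -0.251, -0.404 and -0.0599 in the same order.

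Genes lower than in other kept cells numbered 2673 with 3 gate genes, 2580 without the deepest 5% of barcodes, 2553 without Col1a2, 234 in DESeq2 and 665 on Drop-seq alone. Cga turned to -0.18, -0.63, -0.12 and, without hormone-rich cells, -2.29, and Lhb to -0.59 without the deepest barcodes and -3.29 without hormone-rich cells. Against Sox2 cells 59 genes passed without the deepest barcodes and 221 with no filter on low counts; without hormone-rich cells Cga was at -1.80, Chgb at -0.44, Gh at -0.74, Hbb-bs at -0.0208 and Prl at -1.11. The split into sides called 0 genes without Col1a2, without hormone-rich cells, in DESeq2 or on Drop-seq alone, 1 with no filter, 4 with TMMwsp (1 of them on the side of Pdgfrb and Itih5), and 22 by the larger sum with or without hormone-rich cells.

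Between the sexes 1 gene passed with 3 gate genes or without hormone-rich cells, 2 without the deepest barcodes, without Col1a2 or without the platform term, and 7 with no filter or with the replicate block; leaving out 1 library gave 2 to 11. For lactation 0 passed without the deepest barcodes, Col1a2 or hormone-rich cells or in DESeq2, and leaving out 1 library gave 0 to 2. For mt/hGRF 0 passed with 3 gate genes or without the deepest barcodes, Col1a2 or hormone-rich cells, 5 passed with TMMwsp, and leaving out 1 library gave 3 to 4. The cause of these shifts was not tested. With 3 gate genes the split and the lactation contrast could not be fitted, nor could the endothelial comparison under any setting. Pericyte genes had few counts, with Rgs5 at 26 UMIs and Kcnj8 at 11 in the 396 cells, which limits what the sides can show of them.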

Other observations

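Serping1, the gene of the C1 inhibitor of the complement cascade, had 0.838 to 3.06 UMIs per 10000 in the stromal cells of the 10 libraries, with a median of 1.42, against 0.0133 to 0.113 in the other kept cells. The ranges did not overlap.

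Genes of the meninges, the membranes that continue over the gland, were seen in part of the stromal cells, with at least 1 of the 7 in 91 of 396. Of 6 tested 5 were higher than in other kept cells, with Slc47a1 at 5.91 ± 0.49, Slc6a13 at 4.61 ± 0.72 (18 UMIs in 12 cells), Foxc1 at 3.66 ± 0.52, Bnc2 at 3.36 ± 0.76 and Ptgds at 3.15 ± 0.22 on the log2 scale. Ptgds had 455 UMIs in 33 stromal cells, of which 205 were in 1 cell and 319 in the mt/hGRF library. Aldh1a2, which makes retinoic acid, had 24 UMIs in 14 cells.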
